A study of Mus musculus with 12 samples.

Results

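The 38 genes described here make up the cell's main thiol-based and enzymatic antioxidant defence: the regulator Nrf2 (gene Nfe2l2) and its inhibitor Keap1, enzymes that Nrf2 induces, glutathione peroxidases and transferases, peroxiredoxins, thioredoxins, superoxide dismutases with catalase, and haem-degrading enzymes. They were taken by name from a list, and all 38 were among the 48709 genes of the deposited tables and among the 15571 with enough counts to be tested. RNA had been sequenced from cells of adult mouse brain selected by the astrocyte surface marker ACSA-2, taken 24 h after transient middle cerebral artery occlusion (tMCAO), a stroke model in which the artery of a hemisphere is blocked and then reopened. The occluded (ipsilateral) hemisphere and the other, contralateral one of 6 mice gave 12 libraries in 4 groups of 3. The question set by the study's design text was what loss of Nhe1 in astrocytes does to recovery after stroke.

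All 6 mice were C57BL/6, 90 to 120 days of age, and carried Gfap-CreERT2+/- with Nhe1f/f. This Cre recombinase is made in Gfap-expressing cells and acts once tamoxifen is given, so that the floxed Nhe1 alleles are deleted in those cells. The mice labelled Nhe1 Astro-KO (295, 298 and 300, in this order below) received tamoxifen. The mice labelled wild-type (296, 297 and 474, in this order below) received corn oil and carried the same transgene and floxed alleles. Tamoxifen and the deletion of Nhe1 therefore cannot be told apart in these groups, and all mice were operated, so that the contralateral hemisphere is the only control for the occlusion. Every genotype direction below is one between libraries labelled Astro-KO and libraries labelled wild-type.

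Library totals were 11187723 to 15780600 counts. Astrocyte markers were present in every library, with a summed level of 8 genes of 5340 to 15330 TPM (levels scaled for length and library), and so were markers of other cells. Oligodendrocyte markers summed to 6483 to 10250 TPM in ipsilateral and 3756 to 5649 TPM in contralateral libraries labelled Astro-KO, against 10180 to 15780 TPM and 10870 to 12410 TPM on those sides in libraries labelled wild-type. Choroid plexus and ependymal markers summed to 1379 to 6396 TPM over both sides in libraries labelled Astro-KO and to 7324 to 19420 TPM in libraries labelled wild-type. Most of each sum was the choroid plexus gene Ttr, and the ependymal genes Foxj1 and Ccdc153 did not follow it. Contralaterally Foxj1 stood at 516, 491.5 and 528 TPM in libraries labelled Astro-KO and 330, 503 and 327.5 TPM in libraries labelled wild-type. Ccdc153 stood at 681, 709 and 620 TPM and at 163, 664 and 445 TPM there. Mouse 296 had 4 and 8 Xist counts with 2917 and 2733 counts of Y-linked genes in its ipsilateral and contralateral library, a male pattern, whereas the other 10 libraries had 9140 to 29592 Xist counts. The same mouse had the highest neutrophil markers, 541 TPM ipsilaterally and 212 TPM contralaterally, against at most 97.1 TPM in any other library. In such bulk RNA a smaller number of cells and less RNA per cell cannot be told apart. The p-values below measure the spread between these mice.

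**Figure D1:**
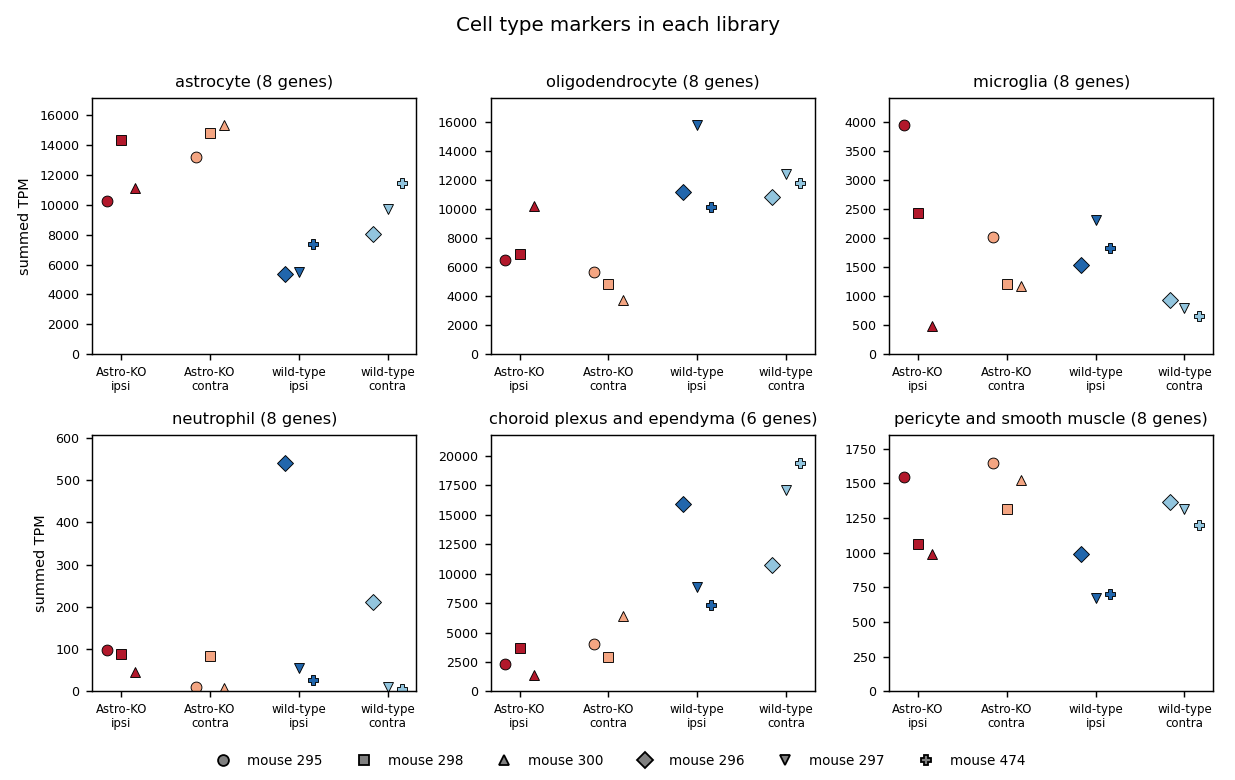
Summed TPM of marker genes in each library, by group (x axis, Astro-KO ipsilateral and contralateral, then wild-type ipsilateral and contralateral); each point is a library and its shape gives the mouse. Libraries labelled Astro-KO had higher astrocyte sums than libraries labelled wild-type on the same side. Their choroid plexus and ependymal sums, which are mostly Ttr, were lower. The neutrophil sums were highest in the 2 libraries of mouse 296.

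Nrf2 is a transcription factor that Keap1, an adaptor of a ubiquitin ligase, holds at a low level. Oxidants and electrophiles modify Keap1, Nrf2 then accumulates and binds antioxidant response elements beside genes for glutathione synthesis, thioredoxin reduction and haem breakdown. In the brain, astrocytes are known as the cells in which this response is strongest, and they supply neurons with precursors of glutathione, the main small thiol that reduces peroxides.

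The antioxidant response element and the site bound by AP-1 factors can share bases, and the sequences just before the start sites of Nrf2-induced genes show this. Windows of 300 bases, 250 before and 50 after each start, were available from RefSeq (GRCm38.p6, equal to mm10) for 32 of the 38 genes. The element core TGACNNNGC, searched on both strands, was found for 9 of these 32 genes, and 14.0% of all genes with a window held it. The form TGAGNNNGC, added after the first search had been seen, was found for 8 of the 32 genes, against 19.9% of all genes. The AP-1 site TGANTCA, which overlaps the element where the bases TCA fill the free positions, was found for 4 of the 32, against 8.97% of all genes. The 250 bases before the start are shown for the 5 Nrf2-induced genes whose window held an element core in either form. Between the hemispheres all 5 rose in mice labelled wild-type, and Srxn1, Txnrd1 and Gclm also rose in mice labelled Astro-KO. Capitals mark the element cores.
Srxn1 (chr2:152105274-152105523, plus strand): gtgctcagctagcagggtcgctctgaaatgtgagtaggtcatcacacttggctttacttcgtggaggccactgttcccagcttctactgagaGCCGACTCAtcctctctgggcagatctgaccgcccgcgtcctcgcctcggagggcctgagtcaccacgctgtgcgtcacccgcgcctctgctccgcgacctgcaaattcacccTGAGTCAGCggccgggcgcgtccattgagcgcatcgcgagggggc
Txnrd1 (chr10:82858956-82859205, plus strand): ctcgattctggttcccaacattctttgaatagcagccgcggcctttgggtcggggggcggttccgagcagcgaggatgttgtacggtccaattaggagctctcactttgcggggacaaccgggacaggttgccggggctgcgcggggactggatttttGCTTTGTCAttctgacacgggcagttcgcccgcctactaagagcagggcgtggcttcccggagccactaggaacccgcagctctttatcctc
Gclm (chr3:122245307-122245556, plus strand): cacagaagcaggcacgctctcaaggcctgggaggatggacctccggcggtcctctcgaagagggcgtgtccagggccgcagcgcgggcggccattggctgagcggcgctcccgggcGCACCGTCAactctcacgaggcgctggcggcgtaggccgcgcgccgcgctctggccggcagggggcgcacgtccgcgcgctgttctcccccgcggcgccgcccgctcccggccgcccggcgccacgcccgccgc
Osgin1 (chr8:119436897-119437146, plus strand): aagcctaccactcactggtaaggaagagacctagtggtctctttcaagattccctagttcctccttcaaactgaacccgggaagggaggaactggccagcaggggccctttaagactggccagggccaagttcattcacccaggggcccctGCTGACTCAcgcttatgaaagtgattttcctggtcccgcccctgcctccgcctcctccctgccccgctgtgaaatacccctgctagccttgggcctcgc
Slc7a11 (chr3:50443614-50443863, minus strand): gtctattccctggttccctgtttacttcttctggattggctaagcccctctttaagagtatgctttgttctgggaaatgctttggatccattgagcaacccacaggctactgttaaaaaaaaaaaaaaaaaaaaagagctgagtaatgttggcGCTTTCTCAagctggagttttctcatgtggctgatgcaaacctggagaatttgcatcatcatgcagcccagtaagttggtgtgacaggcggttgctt
The core of Srxn1 that begins 45 bases before its start, TGAGTCAGC, overlaps an AP-1 site, as does that of Osgin1, which begins 99 bases before the start (GCTGACTCA, the core on the opposite strand). The cores of Txnrd1 (92 bases before the start) and Gclm (134 bases before) overlap no AP-1 site. Srxn1 has a further core in the 50 bases after its start, and the windows of Nqo1 held neither form. Hmox1, Gclc and Gsr had no window in the table used. A match is a description of the letters and no evidence that Nrf2 or AP-1 binds there.

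Between the hemispheres, 6 of the 38 genes rose and 0 fell in mice labelled Astro-KO, and 7 rose and 4 fell in mice labelled wild-type. These are 15.8% and 28.9% of the genes, where edgeR called 6.29% of all genes tested in mice labelled Astro-KO (5.45% higher and 0.841% lower) and 19.2% in mice labelled wild-type (9.61% higher and 9.54% lower). In the mean of both genotypes 13 rose and 4 fell, 44.7% of the genes against 33.2% of all genes tested (17.1% higher and 16.1% lower). The 38 genes were chosen with earlier results of these data known, so such shares describe them and do not test for an excess. All 3 ipsilateral libraries lay above all 3 contralateral ones in 15 genes and below them in 5 in mice labelled Astro-KO, where 18.6% and 20.2% of all genes tested did so (38.8% in either direction). In mice labelled wild-type these counts were 6 and 9, against 17.3% and 16.6% of all genes tested (34% in either direction). The count of 6 in mice labelled Astro-KO was 10 with the animal as a replicate block (8 higher and 2 lower), where 2498 of all genes tested passed against 979 without the block. It was 0 with the oligodendrocyte marker mean as a covariate, where 0 of all 15571 genes passed, and the sums of these markers did not overlap between the sides there. The count was 2 when the contralateral library of mouse 298 or 300 was left out (23 and 86 of all genes), 3 when the ipsilateral library of mouse 295 or 300 was (201 and 264 of all genes), and 10 when the ipsilateral library of mouse 298 was (2282 of all genes). Leaving out both libraries of a mouse gave 0 for mouse 295 and 2 for mouse 300, with 2 and 48 of all genes called. In mice labelled wild-type the count of 11 was 7 and 6 without the contralateral and ipsilateral library of mouse 297, 7 when the contralateral one of mouse 474 was left out, and 5 and 6 without mouse 297 and 474. Of all genes, 2982 passed with all libraries and 1778, 1435, 1557, 659 and 1212 in these 5 fits, in the same order. The mean count of 17 was 11, 10 and 11 without mouse 297, 295 and 300, with 2812, 2897 and 3037 of all genes called against 5169 with all mice.

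Of the regulators, Nfe2l2 passed in the mean of both genotypes and Keap1 in no comparison. Nfe2l2 (ENSMUSG00000015839, mm10 chromosome 2, 75675513 to 75704641) stood at 114, 102 and 113 CPM (counts scaled to library size, with TMM factors) ipsilaterally and 85.4, 86.8 and 92.3 CPM contralaterally in libraries labelled Astro-KO. In libraries labelled wild-type it stood at 96.7, 113 and 115 CPM ipsilaterally and 73.6 to 99.4 CPM contralaterally. In CPM the sides stood apart in mice labelled Astro-KO and overlapped in mice labelled wild-type. In TPM they overlapped in mice labelled Astro-KO (80.7 to 100.8 TPM ipsilaterally and 78.7 to 84.5 TPM contralaterally). They stood apart in mice labelled wild-type in TPM (83.6 to 104.9 TPM and 65.3 to 80.6 TPM on those sides). The log2 fold change, ipsilateral over contralateral, was 0.32 ± 0.13 (SE) in mice labelled Astro-KO and 0.30 ± 0.13 in mice labelled wild-type (edgeR quasi-likelihood test, Benjamini-Hochberg adjusted p = 0.151 and 0.125), and Nfe2l2 passed in the mean of both genotypes (0.31 ± 0.09; edgeR adjusted p = 0.0238). That call was lost in 8 of 18 fits that each left out a library or an animal (leave-out fits), where the edgeR adjusted p reached 0.113: those without either library of mouse 297 or 295, the contralateral library of mouse 298, or mouse 297, 295 or 300. Keap1 stood at 60.0, 54.5 and 79.6 CPM ipsilaterally and 56.7, 53.1 and 53.6 CPM contralaterally in libraries labelled Astro-KO. Its levels in libraries labelled wild-type were 68.9, 57.1 and 55.6 CPM ipsilaterally and 73.2, 56.7 and 56.9 CPM contralaterally. All groups overlapped, and Keap1 did not pass in any comparison (edgeR adjusted p of 0.341 or more between sides).

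The strongest rises of the 38 genes, those of Srxn1 and Hmox1, were among the Nrf2-induced genes. Between sides, 4 of these 9 genes rose and none fell in mice labelled Astro-KO, and 6 rose and none fell in mice labelled wild-type. These are 44.4% and 66.7% of the 9, against 6.29% and 19.2% of all genes tested (5.45% and 9.61% higher). As the genes were chosen with earlier results of these data known, these shares are no test of an excess. The median log2 fold change of the 9 was 1.04 in mice labelled Astro-KO and 2.07 in mice labelled wild-type, against -0.01 and -0.06 over all genes tested. Srxn1, Hmox1, Txnrd1 and Gclm rose under both labels, while Gclc and Nqo1, which are also known Nrf2 targets, did not pass. Microglia markers summed to 485 to 3938 TPM ipsilaterally and 1175 to 2016 TPM contralaterally in libraries labelled Astro-KO, and to 1540 to 2311 TPM and 662 to 928 TPM on those sides in libraries labelled wild-type. With the microglia marker mean as a covariate, Srxn1, Hmox1, Txnrd1 and Gclm passed under both labels. Monocyte and macrophage markers summed to 114.3 to 290.4 TPM ipsilaterally and 83.8 to 101.3 TPM contralaterally in libraries labelled wild-type. In libraries labelled Astro-KO the sides overlapped (252.7 to 484.7 TPM and 147.1 to 504.1 TPM). The part of these cells in the rises of the 4 genes was not tested. With the oligodendrocyte marker mean as a covariate, none of these 4 passed in mice labelled Astro-KO (log2 fold changes of 3.41, 3.32, 2.65 and 0.81; edgeR adjusted p = 0.205, 0.46, 0.242 and 0.705), as no gene did, and all 4 passed in mice labelled wild-type.

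**Figure D2:**
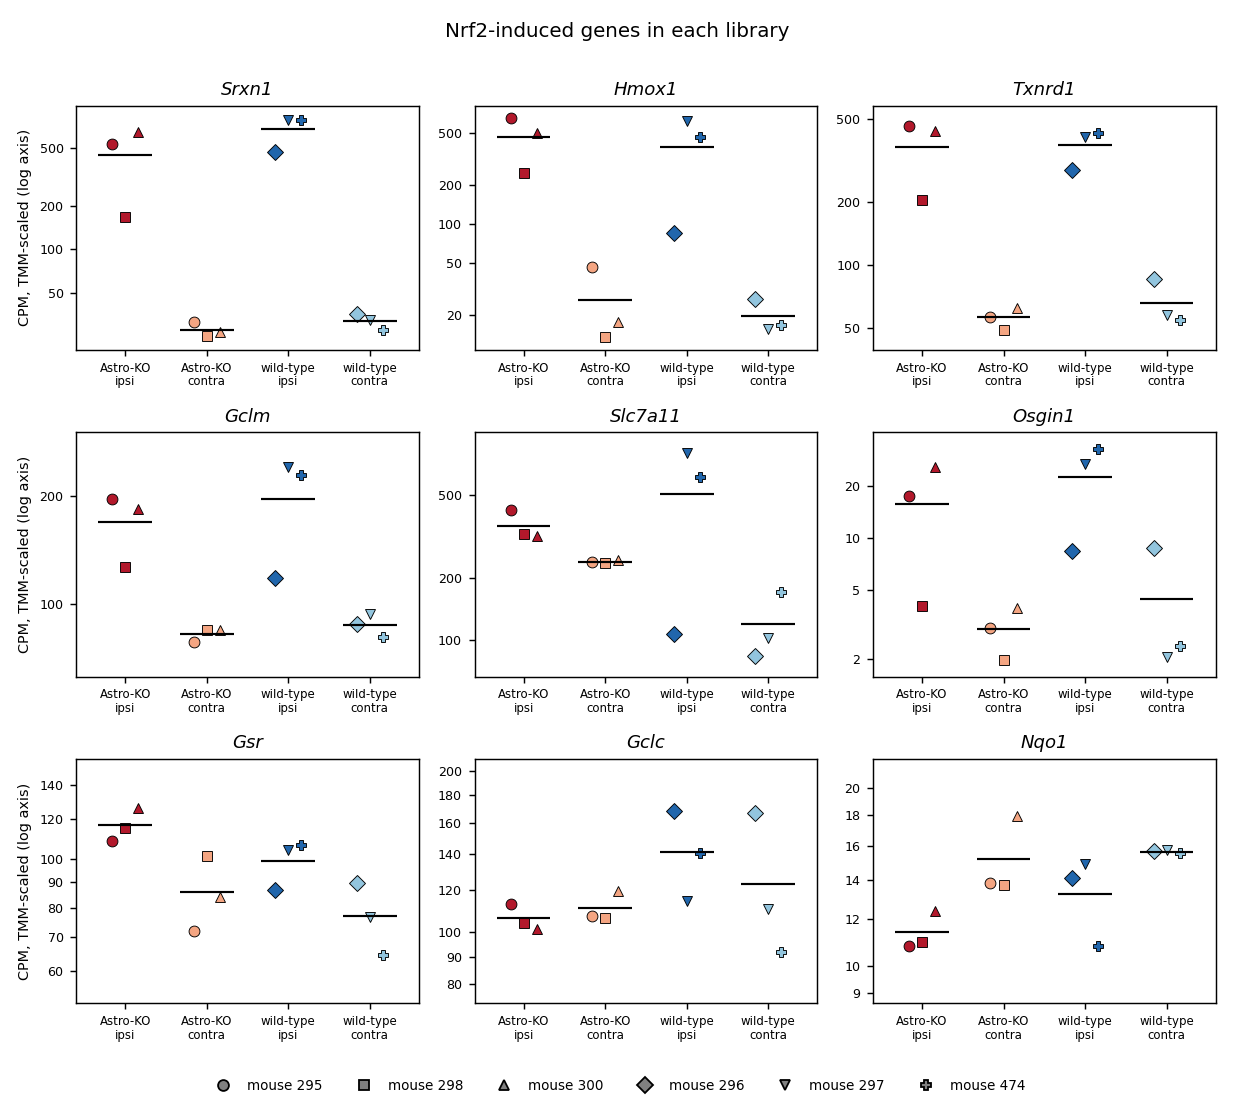
TMM-scaled CPM (log axis) of the 9 Nrf2-induced genes in each library; each point is a library, its shape gives the mouse and the bar is the arithmetic mean of 3. Ipsilateral points of Srxn1 and Txnrd1 lie above all contralateral points under both labels, while those of Gclc overlap the contralateral ones.

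Srxn1 encodes sulfiredoxin, which restores over-oxidised peroxiredoxins (ENSMUSG00000032802, mm10 chromosome 2, 152105516 to 152111376). Its levels were 531, 169 and 649 CPM ipsilaterally and 31.5, 25.3 and 27.1 CPM contralaterally in libraries labelled Astro-KO. Wild-type-labelled libraries had 468, 778 and 784 CPM ipsilaterally and 36.1, 32.7 and 28.0 CPM contralaterally. The sides stood far apart under both labels, and the lowest ipsilateral value came from mouse 298. Srxn1 rose 16.1-fold in mice labelled Astro-KO (log2 fold change 4.01 ± 0.42; edgeR adjusted p = 0.00266) and 21.0-fold in mice labelled wild-type (4.39 ± 0.43; edgeR adjusted p = 0.0008). By p-value it ranked 4 among the 15571 genes in mice labelled Astro-KO and 6 in mice labelled wild-type. Leaving out mouse 295 ended the call in mice labelled Astro-KO (edgeR adjusted p = 0.0569).

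Hmox1, the inducible haem oxygenase that splits haem into biliverdin, iron and carbon monoxide (ENSMUSG00000005413, mm10 chromosome 8, 75093621 to 75100589), varied more between mice. It stood at 649.9, 245 and 504 CPM ipsilaterally and 46.7, 13.4 and 17.6 CPM contralaterally in libraries labelled Astro-KO. Libraries labelled wild-type held 85.5, 625 and 469 CPM ipsilaterally and 26.4, 15.7 and 16.7 CPM contralaterally. No ipsilateral library overlapped the contralateral ones of its genotype, but the ipsilateral library of mouse 296 lay well below the other 5. Hmox1 rose by 4.17 ± 0.71 in mice labelled Astro-KO (log2; edgeR adjusted p = 0.0117) and by 4.33 ± 0.72 in mice labelled wild-type (edgeR adjusted p = 0.00295). In mice labelled Astro-KO the edgeR adjusted p was 0.0785 and 0.0674 without the contralateral library of mouse 298 or 300, and 0.0834 and 0.138 without mouse 295 or 300.

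Txnrd1, the cytosolic thioredoxin reductase (ENSMUSG00000020250, mm10 chromosome 10, 82833951 to 82897712), rose under both labels. It had 464, 204 and 438 CPM ipsilaterally and 56.8, 49.2 and 62.8 CPM contralaterally in libraries labelled Astro-KO. The levels in libraries labelled wild-type were 286, 411 and 430 CPM ipsilaterally and 85.8, 57.6 and 54.7 CPM contralaterally. Every ipsilateral library was above every contralateral one. The rise was 6.54-fold in mice labelled Astro-KO (2.71 ± 0.31 on the log2 scale; edgeR adjusted p = 0.00312) and 5.69-fold in mice labelled wild-type (2.51 ± 0.30; edgeR adjusted p = 0.000898). Without mouse 295 the call in mice labelled Astro-KO was lost (edgeR adjusted p = 0.0596). The counts of Txnrd1 were 0.482 of what its RPKM and the annotated exon length imply, in each of the 12 libraries, so its level beside other genes depends on the length used while its fold change does not. Annotated genes overlap Txnrd1, one of them on the opposite strand at its start, and whether counting used strand is not known here.

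Gclm encodes the modifier subunit of glutamate-cysteine ligase, the enzyme of the first step of glutathione synthesis (ENSMUSG00000028124, mm10 chromosome 3, 122245557 to 122270732). It stood at 197, 127 and 184 CPM ipsilaterally and 78.1, 84.3 and 84.6 CPM contralaterally in libraries labelled Astro-KO. Ipsilateral libraries labelled wild-type held 118, 241 and 230.1 CPM and contralateral ones 87.7, 93.4 and 80.7 CPM. The sides did not overlap under either label. Gclm rose 2.06-fold in mice labelled Astro-KO (1.04 ± 0.24; edgeR adjusted p = 0.0292) and 2.25-fold in mice labelled wild-type (1.17 ± 0.24; edgeR adjusted p = 0.00744). The catalytic subunit Gclc, by contrast, stood at 113, 104 and 101 CPM ipsilaterally and 107, 106 and 119 CPM contralaterally in libraries labelled Astro-KO. Gclc levels in libraries labelled wild-type were 168, 114 and 140.3 CPM ipsilaterally and 167, 111 and 92.01 CPM contralaterally. These values overlapped between sides, with log2 fold changes of -0.06 ± 0.20 in mice labelled Astro-KO and 0.19 ± 0.20 in mice labelled wild-type (edgeR adjusted p = 0.868 and 0.535). Gclm in mice labelled wild-type no longer passed when mouse 297 or 474 was left out (edgeR adjusted p = 0.0799 and 0.0730). In mice labelled Astro-KO it was lost without either library of mouse 295 or 300, the contralateral library of mouse 298, or mouse 295 or 300 (edgeR adjusted p of 0.0999 to 0.26). Between 0.966 and 0.999 of the reads that RPKM implies were in the counts of Gclm, and annotated genes overlap it on both strands.

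Slc7a11, the cystine/glutamate exchanger xCT that imports cystine for glutathione synthesis (ENSMUSG00000027737, mm10 chromosome 3, 49892526 to 50443614), rose in mice labelled wild-type. Its levels in libraries labelled Astro-KO were 424, 323 and 318 CPM ipsilaterally and 238, 235 and 242 CPM contralaterally. In libraries labelled wild-type they were 107, 795 and 605 CPM ipsilaterally and 83.7, 103 and 172 CPM contralaterally. In mice labelled Astro-KO the sides stood apart with a narrow spread, whereas in mice labelled wild-type mouse 296 stayed at contralateral levels. Slc7a11 rose 4.20-fold in mice labelled wild-type (2.07 ± 0.53; edgeR adjusted p = 0.0196). Its log2 fold change in mice labelled Astro-KO was 0.58 ± 0.51 (edgeR adjusted p = 0.49). The difference between these responses, tested as an interaction, was -1.49 ± 0.72 (Astro-KO response minus wild-type response; edgeR adjusted p = 0.948). The call in mice labelled wild-type ended when the contralateral (edgeR adjusted p = 0.0717) or ipsilateral library (0.0853) of mouse 297, all of mouse 297 (0.201) or all of mouse 474 (0.0628) was left out.

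Osgin1 encodes an oxidative-stress-induced growth inhibitor. It stood at 17.5, 4.08 and 26.1 CPM ipsilaterally and 3.02, 1.98 and 3.97 CPM contralaterally in libraries labelled Astro-KO. The corresponding levels in libraries labelled wild-type were 8.42, 26.9 and 32.8 CPM ipsilaterally and 8.86, 2.06 and 2.40 CPM contralaterally. In mouse 296 the sides were nearly equal, and in the other 5 mice the ipsilateral side was higher. Osgin1 rose 5.13-fold in mice labelled wild-type (2.36 ± 0.72; edgeR adjusted p = 0.041), and was 5.25-fold in mice labelled Astro-KO without passing (2.39 ± 0.74; edgeR adjusted p = 0.0735). The first call was lost with the animal as a replicate block (edgeR adjusted p = 0.0504), and in 11 of 18 leave-out fits (up to 0.255). Those fits left out either library of mouse 297, 474 or 295, the contralateral library of mouse 298 or 300, or mouse 297, 474 or 295. In the mean of both genotypes Osgin1 passed (2.38 ± 0.52; edgeR adjusted p = 0.00531).

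Gsr, glutathione reductase, stood at 109, 115 and 126 CPM ipsilaterally and 71.9, 101 and 83.9 CPM contralaterally in libraries labelled Astro-KO. Gsr in libraries labelled wild-type stood at 86.9, 104 and 106 CPM ipsilaterally and 89.5, 76.6 and 64.6 CPM contralaterally. In CPM the sides stood apart in mice labelled Astro-KO and overlapped in mice labelled wild-type. In TPM they overlapped in mice labelled Astro-KO (124.2 to 138.4 TPM ipsilaterally and 91.4 to 129.7 TPM contralaterally). They stood narrowly apart in mice labelled wild-type in TPM (103.6 to 133.4 TPM and 72.2 to 103.1 TPM on those sides). Gsr passed in the mean of both genotypes (0.40 ± 0.11; edgeR adjusted p = 0.0174), and lost that call in 4 of 18 leave-out fits (edgeR adjusted p up to 0.0805), those without mouse 297, 474, 295 or 300. Nqo1, the quinone reductase that is the textbook readout of Nrf2, had 10.8, 10.97 and 12.4 CPM ipsilaterally and 13.8, 13.7 and 17.9 CPM contralaterally in libraries labelled Astro-KO. Its levels in libraries labelled wild-type were 14.1, 14.9 and 10.8 CPM ipsilaterally and 15.6, 15.7 and 15.5 CPM contralaterally. The ipsilateral library was the lower of the pair in all 6 mice. The log2 fold change of Nqo1 in the mean of both genotypes was -0.33 ± 0.12 (edgeR adjusted p = 0.0603), and it passed with the animal as a replicate block (edgeR adjusted p = 0.0365) and with DESeq2, upper-quartile scaling and TPM.

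**Figure D3:**
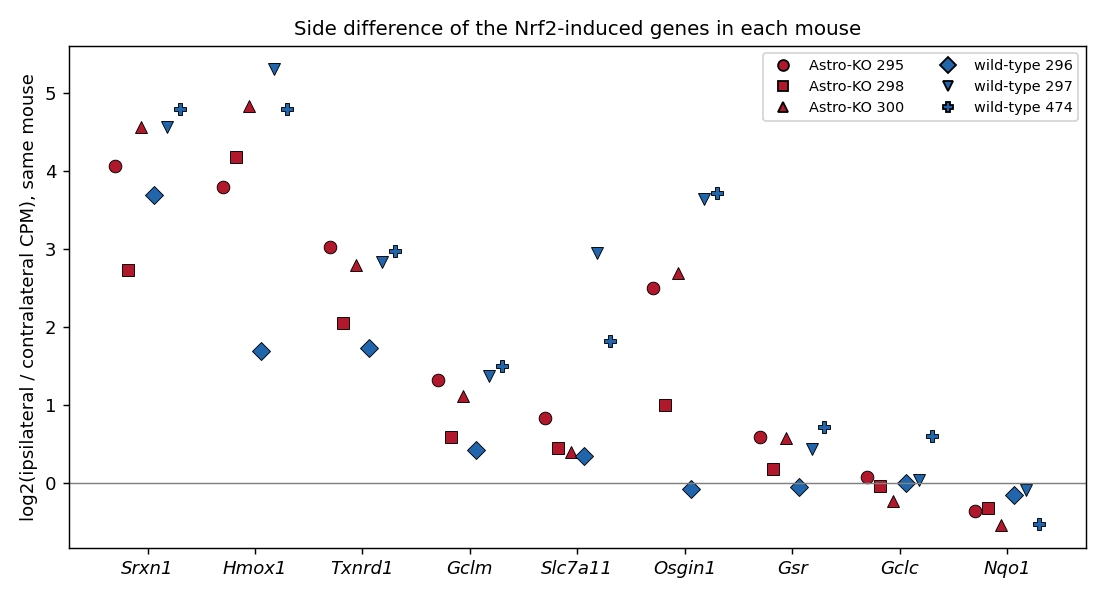
Difference between sides of the 9 Nrf2-induced genes within each mouse, as the log2 ratio of ipsilateral to contralateral CPM after adding 0.1 CPM; red points are mice labelled Astro-KO and blue points mice labelled wild-type. Mouse 296 has the lowest ratio of Hmox1, Txnrd1, Gclm and Osgin1, and Nqo1 lies below 0 in all 6 mice.

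Within mice, the ratio of the sides differed widely between animals of the same label. Srxn1 was 16.9-, 6.65- and 23.9-fold higher ipsilaterally in mice 295, 298 and 300, and 12.9-, 23.8- and 28.0-fold in mice 296, 297 and 474. For Hmox1 these ratios were 13.9, 18.3 and 28.6 in mice labelled Astro-KO and 3.24, 39.8 and 28.1 in mice labelled wild-type. Mouse 296 had the lowest ratio of Hmox1, Txnrd1 (3.33), Gclm (1.35), Slc7a11 (1.28) and Osgin1 (0.950) among mice labelled wild-type, and mouse 298 the lowest of Srxn1, Txnrd1 (4.15), Gclm (1.51) and Osgin1 (2.06) among mice labelled Astro-KO. Mouse 296 was also the one with a male pattern and with the highest neutrophil markers, and the part of these in its ratios was not tested.

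Of the glutathione synthesis and peroxidase genes, Gpx1 was the one of 5 that passed. Gpx1 is the cytosolic glutathione peroxidase, a selenoprotein that reduces hydrogen peroxide (ENSMUSG00000063856, mm10 chromosome 9, 108338903 to 108340343). It stood at 114, 71.6 and 119 CPM ipsilaterally and 58.2, 42.6 and 50.2 CPM contralaterally in libraries labelled Astro-KO. Libraries labelled wild-type had 92.8, 96.8 and 87.2 CPM ipsilaterally and 73.8, 55.6 and 54.6 CPM contralaterally. All ipsilateral values lay above all contralateral values of the same label. Gpx1 rose 2.02-fold in mice labelled Astro-KO (1.01 ± 0.20; edgeR adjusted p = 0.0172). Gpx1 did not pass in mice labelled wild-type (0.59 ± 0.20; edgeR adjusted p = 0.0552), but did with the animal as a replicate block (edgeR adjusted p = 0.0104). The call in mice labelled Astro-KO was lost without the ipsilateral library of mouse 295 (edgeR adjusted p = 0.0645) or 300 (0.0585), the contralateral library of mouse 298 (0.107) or 300 (0.0752), or mouse 295 (0.139) or 300 (0.199). Gss, glutathione synthetase, and the peroxidases Gpx3 (secreted), Gpx4 (which reduces lipid peroxides) and Gpx8 had log2 fold changes between sides of 0.01 to 0.39 in mice labelled Astro-KO and -0.14 to 0.34 in mice labelled wild-type.

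Glutathione transferases join glutathione to electrophiles. Of 5 measured, none passed between sides in mice labelled Astro-KO (median log2 fold change -0.26), and 4 fell in mice labelled wild-type (median -1.06). Of all genes tested, edgeR called 0.841% lower in mice labelled Astro-KO and 9.54% in mice labelled wild-type, so few falls of any kind were called under the first label. All 3 ipsilateral libraries lay below all 3 contralateral ones in 20.2% and 16.6% of all genes tested under these labels. The same held for 3 and 4 of the 5 transferases. In libraries labelled Astro-KO, Gstm1 (ENSMUSG00000058135, mm10 chromosome 3, 108012255 to 108017973) stood at 691, 736 and 895 CPM ipsilaterally and 866, 888 and 936 CPM contralaterally. In libraries labelled wild-type it stood at 357, 355 and 474 CPM ipsilaterally and 715, 749.9 and 1018 CPM contralaterally. The ipsilateral wild-type libraries lay below all other libraries. Gstm1 fell by 1.06 ± 0.18 on the log2 scale in mice labelled wild-type (edgeR adjusted p = 0.00322), against -0.21 ± 0.18 in mice labelled Astro-KO (edgeR adjusted p = 0.472). In TPM the sides did not overlap in libraries labelled Astro-KO, at 1573 to 1655 TPM ipsilaterally and 2063 to 2210 TPM contralaterally. Ratios of the sides in these mice were 0.763, 0.777 and 0.748 in TPM, against 0.798, 0.828 and 0.956 in CPM. For all 38 genes the TPM ratio was below the CPM ratio in mice 295, 297, 298 and 300, and above it in mice 296 and 474. The gap was widest in mouse 300, as for Keap1 (1.16 in TPM against 1.49 in CPM), Gpx1 (1.85 against 2.37) and Cat (0.735 against 0.94). Differences between TPM and CPM in these results thus go with the mouse and not with single genes. Members of the Mu class share sequence, and reads could be split between them by the counting.

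Gstm5, another Mu-class transferase (ENSMUSG00000004032, mm10 chromosome 3, 107895821 to 107898686), stood at 203, 326 and 292 CPM ipsilaterally and 346, 413 and 349 CPM contralaterally in libraries labelled Astro-KO. In libraries labelled wild-type it stood at 194, 154 and 148 CPM ipsilaterally and 424, 299.6 and 499 CPM contralaterally. The sides did not overlap under either label. Gstm5 fell by 1.30 ± 0.22 in mice labelled wild-type (edgeR adjusted p = 0.00308) and its log2 fold change was -0.43 ± 0.22 in mice labelled Astro-KO (edgeR adjusted p = 0.225). An antisense gene overlaps it.

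Gstt1, of the Theta class (ENSMUSG00000001663, mm10 chromosome 10, 75783813 to 75798584), had 18.9, 25.3 and 26.2 CPM ipsilaterally and 37.1, 39.3 and 36.6 CPM contralaterally in libraries labelled Astro-KO. The levels in libraries labelled wild-type were 10.9, 8.93 and 15.6 CPM ipsilaterally and 17.1, 24.0 and 33.5 CPM contralaterally. Again the sides did not overlap under either label. Gstt1 fell by 1.07 ± 0.26 in mice labelled wild-type (edgeR adjusted p = 0.0144). Its log2 fold change in mice labelled Astro-KO was -0.68 ± 0.25 (edgeR adjusted p = 0.115), and it passed with the animal as a replicate block (edgeR adjusted p = 0.0287). The call in mice labelled wild-type was lost without the ipsilateral library of mouse 297 (edgeR adjusted p = 0.0648), the contralateral library of mouse 474 (0.0799) or mouse 297 (0.12).

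Gsta4, which conjugates the lipid peroxidation product hydroxynonenal, stood at 54.0, 56.9 and 69.1 CPM ipsilaterally and 74.96, 69.4 and 71.1 CPM contralaterally in libraries labelled Astro-KO. Gsta4 in libraries labelled wild-type stood at 49.6, 44.3 and 52.9 CPM ipsilaterally and 65.4, 66.9 and 68.5 CPM contralaterally. No values crossed between the sides of either label. Gsta4 fell by 0.45 ± 0.12 in mice labelled wild-type (edgeR adjusted p = 0.0228), and that call was lost in 7 of 18 leave-out fits (edgeR adjusted p up to 0.177), namely either library of mouse 297, the ipsilateral library of mouse 296, the contralateral library of mouse 474, or mouse 296, 297 or 474. Mgst1, a membrane-bound transferase, stood between 51.8 and 83.8 CPM in all 12 libraries and did not pass in any comparison. In TPM its sides did not overlap in libraries labelled Astro-KO (112.1 to 118.1 TPM ipsilaterally and 122.8 to 139.8 TPM contralaterally). Astrocyte markers also summed lower ipsilaterally in libraries labelled wild-type (5340 to 7350 TPM, against 8075 to 11500 TPM contralaterally). In libraries labelled Astro-KO they summed to 10230 to 14370 TPM ipsilaterally and 13220 to 15330 TPM contralaterally. Among these markers Gfap went the other way and was higher ipsilaterally in every mouse of both labels. Gfap stood at 1266 to 1895 TPM ipsilaterally and 770.6 to 1115 TPM contralaterally in libraries labelled wild-type. In libraries labelled Astro-KO it stood at 1707 to 2765 TPM and 393.5 to 1145 TPM on those sides. Every other marker in the sum was lower ipsilaterally in each mouse labelled wild-type. The part of these marker changes in the transferase levels was not tested.

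**Figure D4:**
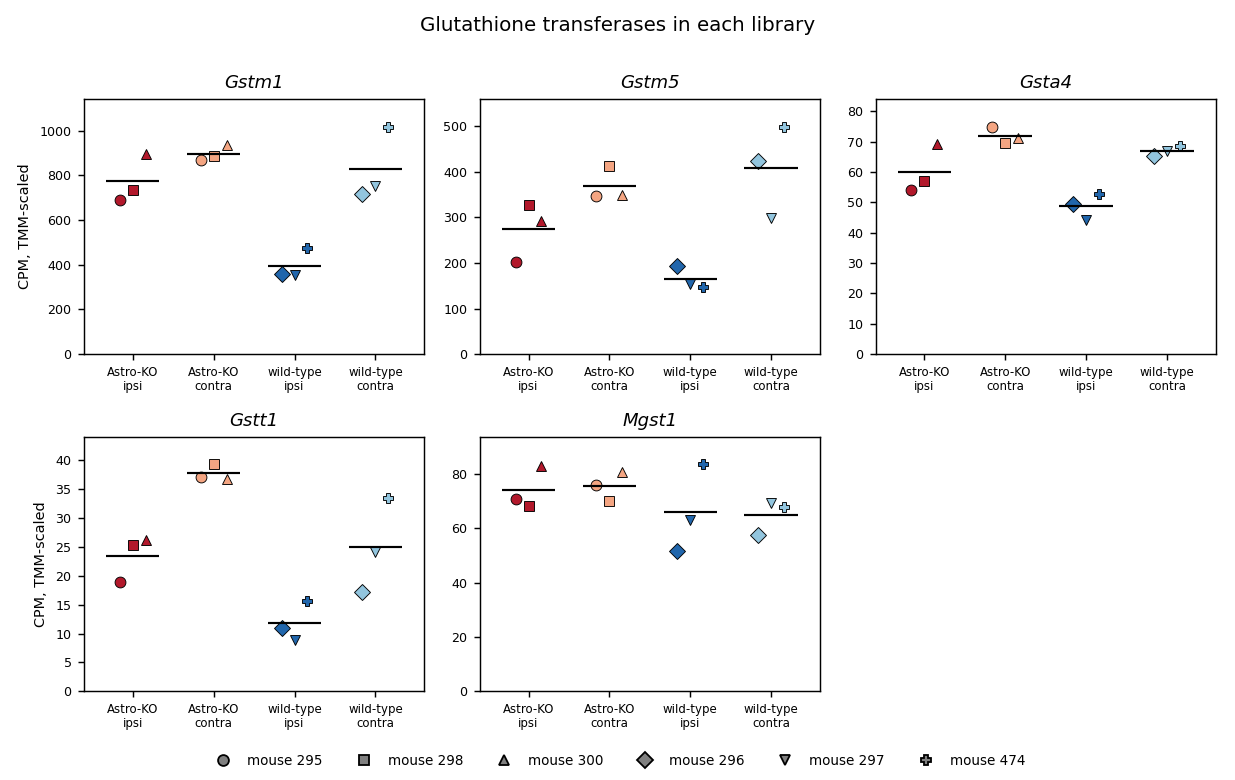
TMM-scaled CPM of the 5 glutathione transferases in each library (linear axis from 0); each point is a library, its shape gives the mouse and the bar is the mean of 3. The ipsilateral libraries labelled wild-type lie lowest for Gstm1, Gstm5, Gsta4 and Gstt1, and Mgst1 overlaps between the sides under both labels.

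Peroxiredoxins are thiol peroxidases that are reduced by thioredoxin or glutathione. None of the 6 passed between sides under either label, where 6.29% (Astro-KO) and 19.2% (wild-type) of all genes tested did. Prdx1 passed in the mean of both genotypes (0.50 ± 0.16, edgeR adjusted p = 0.0343), where 33.2% of all genes tested did. Prdx1, a cytosolic member, stood at 381, 366 and 485 CPM ipsilaterally and 269, 269 and 264 CPM contralaterally in libraries labelled Astro-KO. Prdx1 in libraries labelled wild-type stood at 236, 409 and 399 CPM ipsilaterally and 204, 248.8 and 345 CPM contralaterally. The sides were apart in mice labelled Astro-KO, where Prdx1 passed with the animal as a replicate block (edgeR adjusted p = 0.0289; 0.62 ± 0.23 with an adjusted p of 0.123 without the block), and overlapped in mice labelled wild-type. The call in the mean was lost in 13 of 18 leave-out fits (edgeR adjusted p up to 0.159), and kept without the ipsilateral library of mouse 296 or 298, the contralateral library of mouse 474, or mouse 296 or 474. The log2 fold changes of Prdx2 to Prdx6 ranged from -0.15 to 0.45 in mice labelled Astro-KO and from -0.31 to 0.03 in mice labelled wild-type.

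Among the thioredoxin genes, Txn1, the cytosolic thioredoxin that Txnrd1 reduces (ENSMUSG00000028367, mm10 chromosome 4, 57943373 to 57956411), rose under both labels. It stood at 102, 67.7 and 124 CPM ipsilaterally and 61.1, 53.2 and 60.4 CPM contralaterally in libraries labelled Astro-KO. Ipsilateral libraries labelled wild-type had 91.8, 87.6 and 94.2 CPM and contralateral ones 61.3, 56.1 and 49.97 CPM. The sides were apart in both. Txn1 rose 1.68-fold in mice labelled Astro-KO (0.75 ± 0.18; edgeR adjusted p = 0.0353) and 1.63-fold in mice labelled wild-type (0.71 ± 0.18; edgeR adjusted p = 0.0206). In mice labelled Astro-KO the call was lost in 10 of 18 leave-out fits (edgeR adjusted p up to 0.304), those without either library of mouse 295 or 300, the contralateral library of mouse 297 or 298, or mouse 295, 297, 300 or 474. In mice labelled wild-type it was lost without the contralateral (edgeR adjusted p = 0.0600) or ipsilateral library (0.0526) of mouse 297, the contralateral library of mouse 474 (0.0577), or mouse 297 (0.12) or 474 (0.13). Their mitochondrial counterparts Txn2 and Txnrd2 did not pass, with log2 fold changes of 0.47 ± 0.16 and 0.00 ± 0.28 in mice labelled Astro-KO and 0.05 ± 0.16 and 0.06 ± 0.28 in mice labelled wild-type. Txnip, which binds and inhibits thioredoxin, had log2 fold changes of -0.64 ± 0.39 in mice labelled Astro-KO and -0.50 ± 0.39 in mice labelled wild-type (edgeR adjusted p = 0.312 and 0.397). With the animal as a replicate block Txn2 (edgeR adjusted p = 0.0495) and Txnip (0.0465) passed in mice labelled Astro-KO, and in the mean of both genotypes Txnip (0.00895) and Prdx4 (0.0408) did.

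None of the superoxide dismutases, which turn superoxide into hydrogen peroxide, and not catalase, which breaks hydrogen peroxide down, passed between sides in mice of either label. Of all genes tested, 6.29% did so in mice labelled Astro-KO and 19.2% in mice labelled wild-type. Sod1 (cytosolic), Sod2 (mitochondrial), Sod3 (secreted) and Cat had log2 fold changes of -0.03 to 0.53 in mice labelled Astro-KO and -0.30 to 0.25 in mice labelled wild-type. Sod2 had 87.6, 99.1 and 109.7 CPM ipsilaterally and 79.9, 83.7 and 84.0 CPM contralaterally in libraries labelled Astro-KO, and did not pass in the mean of both genotypes (0.26 ± 0.10; edgeR adjusted p = 0.0635). With the animal as a replicate block it did (edgeR adjusted p = 0.0351). In TPM the sides of Sod2 overlapped in libraries labelled Astro-KO (78.56 to 88.56 TPM ipsilaterally and 74.57 to 78.73 TPM contralaterally).

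Of the other haem-breakdown genes, the biliverdin reductases, which make the antioxidant bilirubin, passed in the mean of both genotypes and the constitutive haem oxygenase Hmox2 did not. Blvra stood at 15.98, 13.7 and 14.4 CPM ipsilaterally and 10.8, 10.6 and 9.82 CPM contralaterally in libraries labelled Astro-KO, and at 14.6, 18.9 and 16.8 CPM and 14.9, 11.9 and 11.9 CPM on those sides in libraries labelled wild-type. Blvrb stood at 29.2, 19.9 and 34.2 CPM ipsilaterally and 21.2, 14.1 and 17.0 CPM contralaterally in libraries labelled Astro-KO. Its levels were 14.9 to 31.9 CPM ipsilaterally and 14.2 to 19.9 CPM contralaterally in libraries labelled wild-type. In CPM only Blvra in mice labelled Astro-KO had sides that did not overlap. In TPM those of Blvra in mice labelled wild-type did not overlap either (19.64 to 24.86 TPM ipsilaterally and 14.96 to 19.38 TPM contralaterally). Over both genotypes Blvra rose by 0.44 ± 0.12 and Blvrb by 0.64 ± 0.20 on the log2 scale (edgeR adjusted p = 0.0139 and 0.0319), and these calls were lost in 3 and 12 of 18 leave-out fits (edgeR adjusted p up to 0.0846 and 0.157). The Blvra call was lost without mouse 297, 295 or 300, and the Blvrb call was kept without the ipsilateral library of mouse 296 or 298, the contralateral library of mouse 474 or 295, or mouse 296 or 298.

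**Figure D5:**
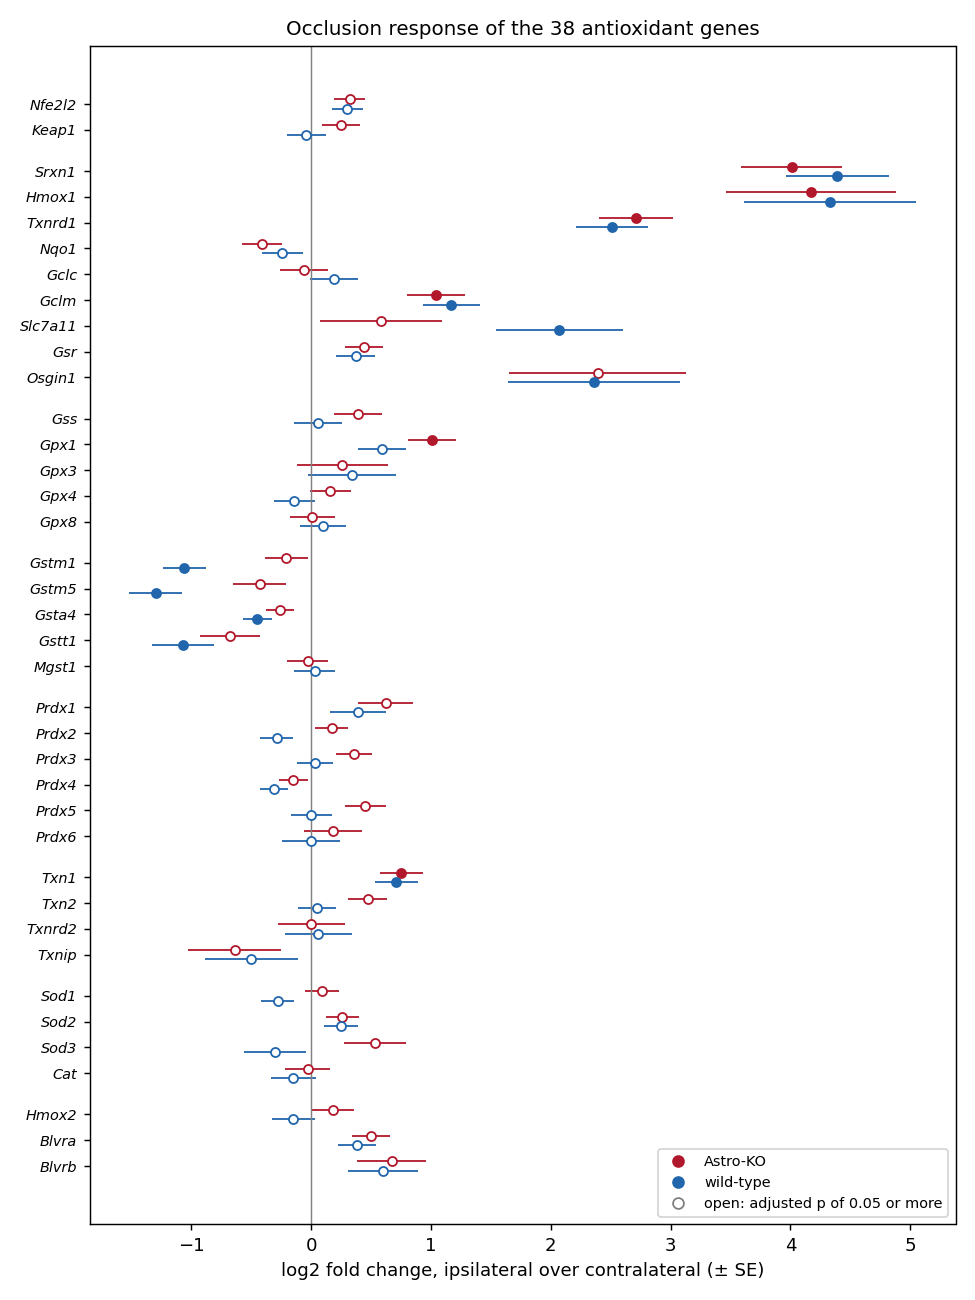
Log2 fold change of each of the 38 genes, ipsilateral over contralateral, in mice labelled Astro-KO (red, upper point) and wild-type (blue, lower point), with SE bars; filled points have an edgeR adjusted p under 0.05. The induced genes Srxn1 and Hmox1 lie furthest right under both labels, and the transferases Gstm1, Gstm5 and Gstt1 furthest left in mice labelled wild-type.

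Between labels on the ipsilateral side, 2 of 38 genes passed, both transferases and both higher in libraries labelled Astro-KO. That is 5.26% of the genes, against 6.31% of all genes tested (4.33% higher and 1.98% lower), so the share is near that of all genes. The count was 0 without the ipsilateral library of mouse 297 or without mouse 297, 295, 298 or 300, and 4 without mouse 474. Of all genes, 983 passed with all libraries, 65 without that ipsilateral library, 0, 233, 107 and 222 without these 4 mice in the same order, and 1351 without mouse 474. The count was 1 without the ipsilateral library of mouse 296 or 298, and likewise without any of the contralateral libraries of mice 297, 295, 298 and 300. Gstm1 was 1.96-fold higher (0.97 ± 0.18; edgeR adjusted p = 0.0136) and Gstt1 1.98-fold higher (0.99 ± 0.26; edgeR adjusted p = 0.0421), and the labels did not overlap in either gene. Over the 38 genes the labels did not overlap in 9 that were higher and 1 that was lower in libraries labelled Astro-KO, where 13.7% and 10.1% of all genes tested did not (23.9% together). Contralaterally Gstt1 was higher without overlap too, at 36.6 to 39.3 CPM in libraries labelled Astro-KO and 17.1 to 33.5 CPM in libraries labelled wild-type. It did not pass there (0.60 ± 0.25, edgeR adjusted p = 0.3). Gstm1 overlapped between labels on that side (0.12 ± 0.18, edgeR adjusted p = 0.78). The Gstm1 call was lost without the ipsilateral library of mouse 297 (edgeR adjusted p = 0.0767) or without mouse 297 (0.105), 295 (0.0521), 298 (0.0632) or 300 (0.0772). The Gstt1 call was lost in 14 of 18 such fits (edgeR adjusted p up to 0.211), kept only without mouse 474, either of its libraries, or the contralateral library of mouse 296. All 9 Nrf2-induced genes failed to pass, with Srxn1 at -0.59 ± 0.37, Hmox1 at 0.25 ± 0.62 and Txnrd1 at -0.03 ± 0.29 (log2, Astro-KO over wild-type). Slc7a11 did not pass with all mice (-0.50 ± 0.51; edgeR adjusted p = 0.623) and passed without mouse 296 (edgeR adjusted p = 0.0326). Astrocyte markers summed to 10230 to 14370 TPM in these libraries labelled Astro-KO and 5340 to 7350 TPM in those labelled wild-type, and oligodendrocyte markers to 6483 to 10250 TPM and 10180 to 15780 TPM. With the oligodendrocyte mean as a covariate 0 of the 38 genes, and 0 of all genes tested, passed. The mean log2 CPM of these markers did not overlap between the labels on this side (9.35 to 9.91 for Astro-KO and 10.03 to 10.64 for wild-type). This fit therefore cannot tell the covariate from the label, and no conclusion is drawn from it.

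On the contralateral side 0 of 38 genes passed between labels in edgeR, where 1.5% of all genes tested did (0.0835% higher and 1.41% lower). At an unadjusted p under 0.05 there were 4 genes (1 higher, Gstt1, and 3 lower in libraries labelled Astro-KO), DESeq2 called 1 and limma-voom 0. Over all genes tested, 2230 (14.3%) had such a p, DESeq2 called 660 and limma-voom 224. The labels did not overlap in 4 genes that were higher and 5 that were lower in libraries labelled Astro-KO, against 11% and 13.5% of all genes tested (24.5% together). Hmox2 stood at 53.1, 47.2 and 46.7 CPM in libraries labelled Astro-KO and at 100.1, 70.6 and 81.1 CPM in libraries labelled wild-type. The labels did not overlap, and the log2 fold change was -0.78 ± 0.19 (edgeR adjusted p = 0.0648). The gene DESeq2 called was Hmox2 (adjusted p = 0.00694). Slc7a11 had a larger log2 fold change on this side without passing (0.99 ± 0.52, edgeR adjusted p = 0.405). Its labels did not overlap, at 234.5 to 241.8 CPM in libraries labelled Astro-KO and 83.7 to 171.5 CPM in libraries labelled wild-type.

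The difference between the labels in the response to occlusion was tested as an interaction, and edgeR called 0 of 38 genes and 0 of all 15571. At an unadjusted p under 0.05 there were 4 of the 38 genes, all with a higher response in mice labelled Astro-KO, and 763 genes in all (4.9%). DESeq2 called 1 of the 38 (Gstm1, adjusted p = 0.0488) and 20 genes in all, and limma-voom 0 and 0. Among the 38 the 3 largest differences were -1.49 ± 0.72 for Slc7a11, 0.87 ± 0.31 for Gstm5 and 0.85 ± 0.26 for Gstm1 (edgeR adjusted p = 0.948 each). A gene that passed in mice of one label and not of the other was thus not shown to respond differently.

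Other genes of the pathway were counted from lists that name Nrf2 partners, further Nrf2 targets, glutathione enzymes, and thioredoxin and repair genes. Earlier results of these data were known when the lists were chosen, so their shares beside all genes are no test of an excess. Of 10 partners, Bach1, a repressor that competes with Nrf2 for the element, rose by 0.72 ± 0.17 in mice labelled Astro-KO and by 0.93 ± 0.17 in mice labelled wild-type (edgeR adjusted p = 0.0292 and 0.00381), and the other 9 did not pass in mice of either label. Among 20 further targets tested, 3 rose and 0 fell in mice labelled Astro-KO and 6 rose and 2 fell in mice labelled wild-type. These are 15% and 40% of the list, against 6.29% and 19.2% of all genes tested. Those that rose in mice labelled Astro-KO were Akr1b8, an aldo-keto reductase (1.92 ± 0.38), Ftl1, the ferritin light chain (1.17 ± 0.26), and Pgd, of the pentose phosphate pathway (0.93 ± 0.25; edgeR adjusted p = 0.018, 0.0262 and 0.0477). In mice labelled wild-type Cbr1, a carbonyl reductase, fell by 1.08 ± 0.14, while Akr1b8 rose by 1.68 ± 0.38 and Slc3a2, the partner chain of xCT, by 0.76 ± 0.18 (edgeR adjusted p = 0.000967, 0.0112 and 0.0145).

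Of 31 other glutathione genes tested, 2 rose and 0 fell in mice labelled Astro-KO, and 2 rose and 10 fell in mice labelled wild-type. These are 6.45% and 38.7% of the list, against 6.29% and 19.2% of all genes tested. Glrx, glutaredoxin, rose by 1.15 ± 0.28 in mice labelled Astro-KO (edgeR adjusted p = 0.0329), and so did Chac1, which degrades glutathione, by 3.61 ± 0.92 (edgeR adjusted p = 0.0401). In mice labelled wild-type Gstz1 fell by 0.94 ± 0.18 and Gstm2 by 0.98 ± 0.20 (edgeR adjusted p = 0.00544 and 0.00711). Gsta1 rose by 4.65 ± 0.95 in these mice at low levels, averaging 3.04 CPM ipsilaterally and 0.116 CPM contralaterally (edgeR adjusted p = 0.00713). Of 16 thioredoxin and repair genes, 2 rose and 0 fell in mice labelled Astro-KO and 2 rose and 4 fell in mice labelled wild-type, which are 12.5% and 37.5% of the list against the same 6.29% and 19.2%. Txnl1, a thioredoxin-like protein, rose by 0.59 ± 0.13 and Sesn2, a stress-induced sestrin, by 1.63 ± 0.44 in mice labelled Astro-KO (edgeR adjusted p = 0.027 and 0.0495). Nxn, nucleoredoxin, fell by 0.82 ± 0.14, Txnl1 rose by 0.61 ± 0.13 and Msrb2, a methionine sulfoxide reductase, fell by 0.78 ± 0.18 in mice labelled wild-type (edgeR adjusted p = 0.00342, 0.00968 and 0.0127).

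Between labels on the ipsilateral side the further targets Cbr1 (0.80 ± 0.14), Idh1 (0.74 ± 0.15) and Cbr3 (0.87 ± 0.23) were higher in libraries labelled Astro-KO (edgeR adjusted p = 0.00888, 0.0187 and 0.0429), and so was Nxn (0.74 ± 0.14; edgeR adjusted p = 0.0141). These were 15% of the further targets and 6.25% of the thioredoxin and repair genes, against 6.31% of all genes tested. Of the glutathione genes, Ggt5 was higher and Gsta1, Gstm7 and Gsta3 were lower, 12.9% of that list. Contralaterally none of the 77 listed genes tested passed between labels in edgeR, and none did in the interaction. Between sides in the mean of both genotypes, 4 of 10 partners rose and 0 fell, and 8 of 20 further targets rose and 3 fell. Of 31 glutathione genes 4 rose and 10 fell, and of 16 thioredoxin and repair genes 4 rose and 5 fell. These are 40%, 55%, 45.2% and 56.2% of the lists, against 33.2% of all genes tested.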

How the data were processed

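RNA of ACSA-2-selected cells was sequenced on an Illumina HiSeq, per the labels' protocols, and the genome build was mm10 per the submitters' processing notes; not given in the sources used here: aligner, counter, strand setting. The authors deposited a table per library with whole-number values, used here as counts of reads per gene. The deposited TPM and RPKM were computed by the authors and scaled for gene length and library size; TPM served for marker sums and an alternative test, and RPKM for checking counts. The ratio of counts to RPKM varied between libraries by under 1% for 34 of the 38 genes and by at most 3.48% (Gclm). Beside Txnrd1, the counts held a low share of what RPKM and exon length imply for Sod1 (median 0.162), Sod2 (0.370) and Blvrb (0.508). For Gpx1, Gsta4 and Prdx6 the median shares were 0.744, 0.756 and 0.764. The levels of these genes beside other genes therefore depend on the length used too.

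Counts were tested with edgeR 4.0.16 (R 4.3.3): filterByExpr with a minimum count of 10, TMM scaling, 1 mean per group over 12 libraries, robust quasi-likelihood fit with 8 residual degrees of freedom, and Benjamini-Hochberg adjustment over all 15571 genes. An adjusted p under 0.05 is a call. SE is the log2 fold change divided by the root of the F statistic. Contrasts were ipsilateral over contralateral under each label and in the mean of both genotypes, Astro-KO over wild-type on each side, and the interaction. Alternatives were RLE and upper-quartile scaling, other filters, no robust estimation, marker covariates, DESeq2 1.42.0, limma 3.58.1 (voom, and trend on log2 of TPM with a pseudocount of 1 or 0.1), only the groups compared, the animal as a replicate block, and leaving out each of 12 libraries and 6 mice. The block rests on the labels, which give both sides of a mouse the same animal number; both sides' deviations from their group means correlated at 0.02 to 0.63 across 15571 genes in the 6 mice. Library totals limit precision for genes with few counts. The fit was tested on simulated data.

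All 38 genes are described by role. Library values are given for regulators, Nrf2-induced genes and genes that passed in any contrast, and ranges for others. Of other pathway lists, up to 3 passing genes with the smallest p are named per list between sides under each label. Passing genes between labels are named, and for the mean of both genotypes only counts are given. The genes and lists were chosen with earlier results of these data known. The values of the gene targeted in the knockout are not reported here.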

Additional observations from a re-analysis of the deposited data

Results flagged for a closer look

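Prdx2, a cytosolic peroxiredoxin, had higher CPM ipsilaterally in all 3 mice labelled Astro-KO (1.03-, 1.05- and 1.30-fold) and lower in all 3 labelled wild-type (0.756-, 0.855- and 0.833-fold). Sod3, the secreted superoxide dismutase, had higher CPM in all 3 mice labelled Astro-KO (1.06-, 1.01- and 2.40-fold) and lower in all 3 labelled wild-type (0.961-, 0.861- and 0.673-fold). Both drew attention because, in CPM, every mouse of each label moved the opposite way from those of the other. In TPM this did not hold: the ratios in mice 295, 298 and 300 were 0.979, 0.975 and 1.03 for Prdx2 and 1.02, 0.950 and 1.88 for Sod3. The Astro-KO response minus the wild-type response was 0.47 ± 0.20 for Prdx2 and 0.82 ± 0.36 for Sod3 on the log2 scale. Neither difference passed as an interaction (edgeR adjusted p = 0.948 for both). Annotated genes, Junb among them, overlap Prdx2, and the Sod3 ratio was highest in mouse 300.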

How the results depend on the processing

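The counts of called genes changed by more than 1.5 times under these settings. In mice labelled Astro-KO the 6 calls between sides became 0 with the oligodendrocyte covariate, 10 with only the groups compared and 10 with the replicate block; the 17 calls in the mean became 10 with that covariate. The replicate block left 11 calls in mice labelled wild-type, 21 in the mean and 0 in the interaction, and changed no call beyond those given with it above. Between labels the 2 ipsilateral calls became 0 with that covariate, 0 with only the groups compared, 4 with DESeq2 and 1 with limma-voom and with TPM at either pseudocount. The 0 contralateral calls became 1 with DESeq2 and 1 with only the groups compared, and the 0 interaction calls 1 with DESeq2. Leaving out a library gave 2 to 10 calls between sides in mice labelled Astro-KO, 6 to 12 in mice labelled wild-type, 14 to 20 in the mean, 0 to 3 between labels ipsilaterally, 0 to 1 contralaterally and 0 in the interaction. Leaving out a mouse gave 0 to 9, 5 to 13, 10 to 18, 0 to 4, 0 and 0 in the same order (in the mean, 11 without mouse 297 or 300). For single genes no called value changed sign; calls were lost in 125 results of leaving out libraries or mice and in 46 of other settings, and gained in 35 and 38. Uncalled values that changed sign were not counted as reversals. The cause of these changes was not tested; leaving out samples also leaves fewer libraries in the fit.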
